A study of Mus musculus with 30 samples.

Results

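The response of mouse blood to 7 Gy of x-rays was measured 24 h after exposure in p38WT mice, the genotype that the p38DKI and p38DN mice of the same study were set against. The comparison used the 10 arrays titled as p38WT blood, 5 irradiated and 5 unirradiated, of the 30 arrays in the series. All were from male C57BL/6J mice, and the blood was taken by cardiac puncture into PAXgene, a solution that lyses the cells and stabilises their RNA. The irradiated group was bled 24 h after 7 Gy and the unirradiated group received no dose. The labels call the 5 samples of a group independent experiments and do not say that each is a single mouse. They give no age, and they do not spell out DKI or DN. Each sample was read on its own Agilent 1-colour array, whose values are fluorescence intensities. Levels below are the log2 processed signal minus the 75th percentile of that array, so 0 is the 75th percentile and a difference of 1 is a 2-fold difference. Groups were compared with limma, and a gene was called when its Benjamini-Hochberg adjusted p was under 0.05 over all genes tested.

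Ionising radiation breaks DNA, and the damage activates the transcription factor p53, which raises genes that stop the cell cycle, repair the damage or start apoptosis. Blood cells differ widely in how readily they die after such damage: resting B and T lymphocytes are known to be among the most sensitive, and mature granulocytes, platelets and red cells do not divide and turn over at their own pace. Whole blood RNA is a mixture of all of these. A lower level of a transcript in it can therefore come from fewer cells of a type or from less of the RNA in each cell. A higher level can come from more of the RNA in each cell or from a larger share of the type, as when other cells are lost. These cannot be told apart in bulk samples, where levels are relative to the rest of each array.

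Of 16339 genes tested, 5969 were called (36.5%), of which 3259 rose (19.9%) and 2710 fell (16.6%). The 5 irradiated and 5 unirradiated arrays did not overlap for 4513 genes (27.6%). The median change of all genes was -0.07 on the log2 scale, and 54.6% of the called genes rose. With no scaling between arrays that median was -0.50 and 21.1% of called genes rose; with the 75th percentile taken over the probes detected on all arrays they were -0.21 and 41.9%. Of the changes of at least 2-fold, 1780 were rises and 992 were falls. Among larger changes falls were the more common: 38 genes rose and 142 fell at least 8-fold, and 6 rose and 38 fell at least 16-fold. Of the genes that rose, 13 were well above background on all 5 irradiated and no unirradiated array, and of those that fell, 94 were so on all 5 unirradiated and no irradiated array. The largest fall of all was at a probe with no gene name in the reference table (chr12:114654277-114654336, mm9), by 119-fold (log2 -6.89 ± 0.221 SE, adjusted p = 6.58e-08). Irradiated arrays varied more among themselves: the median SD per gene was 0.390 in irradiated and 0.264 in unirradiated blood. The larger SD was in the irradiated group for 75.9% of genes. Most unirradiated arrays shared a slide and the irradiated arrays lay on others, so this difference in spread cannot be told apart from the slides.

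**Figure D1:**
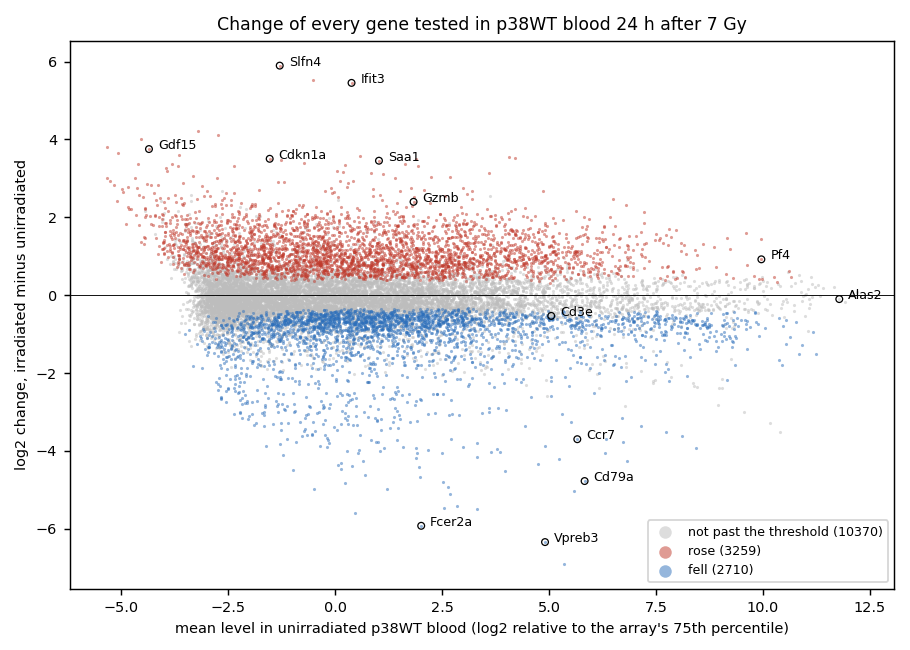
Log2 change, irradiated minus unirradiated p38WT blood, against the mean level of each gene in unirradiated blood (log2 relative to the array's 75th percentile), with the genes that rose, fell or did not pass the limma threshold in separate colours. Rises are spread over all levels, and the falls reach further from 0, to -6.89, than the rises, to 5.90.

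Several features of the arrays bear on these values. The share of probes well above background was 39.24% on irradiated array 3 and 51.13 to 62.55% on the others. The arrays lay on 3 slides: unirradiated 1 to 4 on the first, irradiated 1 to 3 with unirradiated 5 on the second, and irradiated 4 and 5 on the third. Slide and treatment therefore overlap in slide 2 alone. Changes within slide 2 are the mean of irradiated 1 to 3 minus unirradiated 5, a single array. Over the genes called on all 10 arrays, these 4 included, the median within that slide was 0.86 for genes that rose, against 1.06 in the full comparison, and -0.64 for those that fell, against -0.81. Such values are a description, since the same arrays helped to choose the genes. A fit with the slide as a block called 505 genes.

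Of the 12 largest rises among named genes, 4 were in the interferon-stimulated list and 2 in the Schlafen list, and these held the first 3 places. Interferons are cytokines that switch on many antiviral genes through the transcription factor complex ISGF3, which binds an element known as the ISRE. The Schlafen genes encode a family of regulators of lymphoid and myeloid cells, several of them interferon-induced. Slfn4, a Schlafen gene expressed in myeloid cells (probe at chr11:83002974-83003033, mm9), had log2 levels of 5.13, 4.42, 4.42, 4.63 and 4.38 on the irradiated arrays, against -1.82, -1.86, -0.69, -2.29 and 0.16 on the unirradiated arrays. All 5 irradiated arrays lay far above the highest unirradiated array, and unirradiated 3 and 5 stood above the rest of their group. The means were 4.60 ± 0.314 in irradiated and -1.30 ± 1.01 in unirradiated blood (SD, n = 5 each), a rise of 59.5-fold (log2 5.90 ± 0.422 SE, limma adjusted p = 7.29e-06), and the change within slide 2 was 4.49. Ifit3, an interferon-induced antiviral protein with tetratricopeptide repeats (chr19:34663105-34663164, mm9), had log2 levels of 5.95, 5.61, 5.80, 5.97 and 5.83 on the irradiated arrays, against 0.45, 0.28, 0.41, -0.13 and 0.89 on the unirradiated arrays. Its irradiated levels span a narrow range and do not approach those of any unirradiated sample. Its rise was 43.8-fold (log2 5.45 ± 0.183 SE, limma adjusted p = 6.58e-08), and 4.90 within slide 2. Its neighbour Ifit3b rose 45.96-fold (adjusted p = 8.81e-06). No pair of Ifit probes in this cluster matched at more than 24 of 60 bases. Probes were compared with each other alone, so binding of a probe to the transcript of a relative was not tested.

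Of the 7 Schlafen genes, all measured, 6 rose and none fell, against 19.9% and 16.6% of all genes, with a median log2 change of 2.01. Slfn3 had log2 levels of 1.76, 1.30, 1.25, 1.29 and 1.25 on the irradiated arrays, against -2.33, -3.56, -2.73, -2.78 and -2.28 on the unirradiated arrays. The irradiated arrays were all higher, and irradiated 1 was above the other irradiated arrays. Slfn3 rose 17.2-fold (adjusted p = 1.69e-06), Slfn1 4.30-fold, Slfn8 4.02-fold and Slfn2 2.32-fold. Slfn9 rose 1.42-fold with groups that overlapped (adjusted p = 0.0276), and Slfn5 did not pass (log2 0.25, adjusted p = 0.385).

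Of 44 interferon-stimulated genes measured, 36 rose and 1 fell, with a median log2 change of 1.49 against -0.07 over all genes. Genes that bind or sense viral RNA were among them: Oasl1, an oligoadenylate synthetase-like protein, rose 11.2-fold (adjusted p = 8.97e-06). Ifitm1, which blocks the entry of enveloped viruses, rose 11.6-fold, Rtp4, an interferon-induced transporter protein, rose 8.74-fold, and Ifi27l2a rose 4.94-fold. The rise was not shared by every well-known member. Rsad2, which encodes viperin, fell by 1.11 on the log2 scale (adjusted p = 0.0147), Isg15, a ubiquitin-like modifier, had a log2 change of -0.37 (adjusted p = 0.284), and Irf7, a transcription factor of the interferon response, had 0.54 (adjusted p = 0.0992). The mean level of the list, each gene centred on its mean over the 10 arrays, was 0.73 to 0.99 on the irradiated and -1.22 to -0.70 on the unirradiated arrays, with unirradiated 4 the lowest. Leaving out any single array gave 35 to 37 rises and 1 fall.

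The promoters of Ifit3 and Ifit3b are shown because these had the largest rises in the interferon-stimulated list. Each window covers 250 bases before to 50 bases after the start site, on the + strand, at chr19:34583279-34583578 and chr19:34607707-34608006 of GRCm38.p6 (RefSeq). Capitals mark matches to the ISRE consensus, searched as GAAANNGAAA on both strands.
Ifit3: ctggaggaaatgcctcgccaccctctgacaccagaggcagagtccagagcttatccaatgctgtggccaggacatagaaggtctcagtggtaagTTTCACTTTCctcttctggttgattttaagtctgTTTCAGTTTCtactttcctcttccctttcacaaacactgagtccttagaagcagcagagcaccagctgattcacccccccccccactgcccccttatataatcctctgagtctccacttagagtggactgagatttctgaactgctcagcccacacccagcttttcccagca
Ifit3b: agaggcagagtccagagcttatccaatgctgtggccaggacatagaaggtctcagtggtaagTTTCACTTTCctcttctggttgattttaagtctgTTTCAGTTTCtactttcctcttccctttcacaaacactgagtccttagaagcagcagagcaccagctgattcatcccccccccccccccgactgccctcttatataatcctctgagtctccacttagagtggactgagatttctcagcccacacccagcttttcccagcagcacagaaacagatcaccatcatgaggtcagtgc
Both windows hold 2 matches on the minus strand, the first at position -156 from the start site in Ifit3 and at -188 in Ifit3b. Of the 24 interferon-stimulated genes that rose and had a promoter in the table, 14 held the motif (58.3%), as did 19 of all 31 tested members with a promoter (61.3%). Of all 27025 genes of the table, 4.0% held it. Of the 12 largest rises 11 had a promoter, and Ifit3 and Ifit3b were the 2 that held it (18.2%). A match is a description of these letters and was not tested for binding.

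A further large group of rises was in targets of p53. Cdkn1a, whose product p21 arrests the cell cycle downstream of p53 (chr17:29237377-29237436, mm9), had log2 levels of 2.48, 1.77, 2.19, 1.47 and 1.93 on the irradiated arrays, against -1.95, -2.03, -1.66, -1.96 and -0.07 on the unirradiated arrays. Every irradiated array was above every unirradiated array, and unirradiated 5 was well above the other unirradiated arrays. The means were 1.97 ± 0.388 in irradiated and -1.53 ± 0.832 in unirradiated blood (SD, n = 5 each). Cdkn1a rose 11.3-fold (log2 3.50 ± 0.370 SE, limma adjusted p = 8.89e-05), and its change within slide 2, where the unirradiated array is number 5, was 2.22. Phlda3, a p53-induced inhibitor of Akt, had log2 levels of 5.01, 4.89, 5.14, 5.21 and 4.73 on the irradiated arrays, against 1.81, 1.48, 1.91, 1.22 and 1.73 on the unirradiated arrays. The groups were far apart and each was narrow, and the rise was 10.3-fold (adjusted p = 7.24e-07). Psrc1, a p53-regulated protein of the mitotic spindle, rose 10.04-fold, and Gdf15, a stress-induced cytokine of the TGF-beta family, rose 13.5-fold. Gdf15 was well above background on all 5 irradiated arrays and on 1 of 5 unirradiated arrays.

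Of 42 p53 targets measured, 25 rose and 5 fell, with a median of 0.94. Ccng1, which encodes cyclin G1, rose by 2.66 on the log2 scale, and Mdm2, the ubiquitin ligase that limits p53, by 1.33. Among genes of cell death, Bbc3, which encodes the pro-apoptotic protein PUMA, changed by 1.61 and Fas, a death receptor, by 0.91, and Tnfrsf10b, the receptor for the death ligand TRAIL, by 1.70. All of these passed, whereas Bax, the p53 target that opens the mitochondrial membrane, had a log2 change of -0.07 (adjusted p = 0.973). The 5 members that fell were Dgka (-1.36), Sesn1 (-0.90), Tigar (-0.89), Ptp4a3 (-0.66) and Ddb2 (-0.52), of which Ddb2 recognises ultraviolet damage in DNA. The list's mean centred level was 0.48 to 0.55 on irradiated and -0.63 to -0.41 on unirradiated arrays.

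The Cdkn1a promoter window, chr17:29090729-29091028 of GRCm38.p6 on the + strand, is shown because the data bear on p53 targets. Capitals mark matches to the 10-base p53 half-site.
Cdkn1a: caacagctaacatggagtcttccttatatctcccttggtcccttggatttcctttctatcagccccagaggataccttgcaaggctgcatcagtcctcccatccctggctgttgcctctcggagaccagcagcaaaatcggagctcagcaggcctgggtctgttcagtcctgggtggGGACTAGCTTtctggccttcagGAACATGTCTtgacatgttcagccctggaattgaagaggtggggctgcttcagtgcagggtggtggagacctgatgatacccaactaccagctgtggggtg
It holds 2 matches, the first at position -73. The p53 half-site was found in 6 of the 20 p53 targets that rose and had a promoter, in 12 of all 34 tested members with a promoter (35.3%) and in 9.6% of all genes of the table.

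Besides these, the 12 largest rises included Entpd3, an enzyme that splits extracellular nucleotides (18.6-fold, adjusted p = 0.000238), and Fap, a cell-surface serine protease (16.2-fold, adjusted p = 1.66e-05). Cldn19, a tight junction claudin, rose 12.1-fold, and Cxcr1, a chemokine receptor of neutrophils, rose 11.2-fold. Fap was well above background on all 5 irradiated arrays and on 1 of 5 unirradiated arrays, so its fold is set against levels mostly at background. Entpd3 had log2 levels of 0.23, 1.11, 1.34, 1.74 and 0.69 on the irradiated arrays, against -2.49, -4.80, -2.84, -4.03 and -1.83 on the unirradiated arrays. The irradiated arrays were all higher, and the unirradiated levels were near background, with 3 of 5 arrays well above it.

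**Figure D2:**
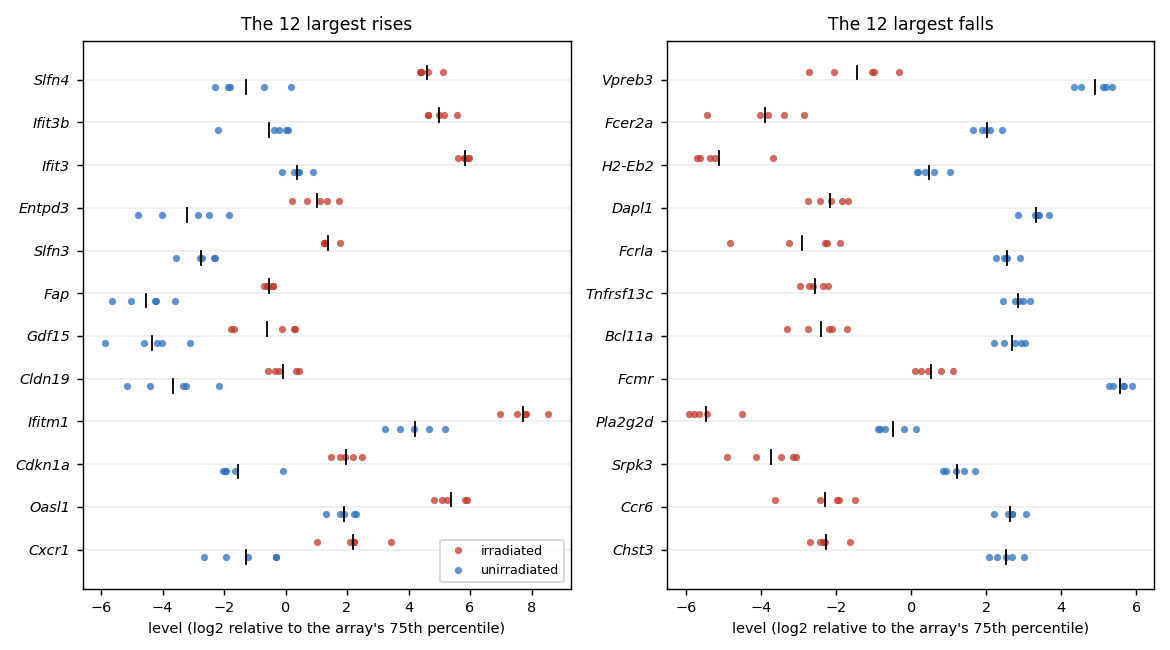
Log2 level on each of the 10 p38WT arrays, relative to the array's 75th percentile, for the 12 genes with the largest rises and the 12 with the largest falls; in each row irradiated arrays are drawn above unirradiated arrays. By the rule that chose them, no irradiated array overlaps an unirradiated one in any of these genes.

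Of the 12 largest falls among named genes, 6 were in the list of B lymphocytes, the cells that make antibodies, and 1 was an MHC class II gene. Vpreb3, a gene of the B lineage (chr10:75412326-75412385, mm9), had log2 levels of -2.06, -1.06, -2.74, -0.99 and -0.33 on the irradiated arrays, against 5.35, 5.12, 4.52, 5.19 and 4.34 on the unirradiated arrays. No irradiated array came near an unirradiated one, and irradiated 3 was the lowest. The means were -1.44 ± 0.956 in irradiated and 4.90 ± 0.442 in unirradiated blood (SD, n = 5 each), a fall of 80.97-fold (log2 -6.34 ± 0.420 SE, limma adjusted p = 4.93e-06), and the change within slide 2 was -6.30. Tnfrsf13c, the receptor for the B cell survival factor BAFF, had log2 levels of -2.61, -2.72, -2.37, -2.96 and -2.21 on the irradiated arrays, against 2.99, 2.87, 2.45, 3.17 and 2.75 on the unirradiated arrays. Its groups were also far apart, and it fell 42.9-fold (adjusted p = 6.58e-08). Fcer2a, which encodes the IgE receptor CD23, was well above background on all 5 unirradiated and no irradiated array, and was at least 36.1-fold lower after irradiation (adjusted p = 5.86e-06). The other 5 were in no list: Dapl1 fell 45.1-fold, Ccr6, a chemokine receptor, 30.6-fold and Chst3, a sulfotransferase, 27.8-fold. Srpk3, a protein kinase, was at least 19.6-fold lower and Pla2g2d, a secreted phospholipase, at least 6.86-fold lower, with no irradiated array well above background for either.

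Of 27 B cell genes measured, none rose and 25 fell, and the median log2 change was -4.03. Ms4a1, which encodes CD20, had log2 levels of 1.56, 0.21, 1.43, 0.25 and 1.71 on the irradiated arrays, against 5.22, 5.42, 5.01, 5.61 and 4.92 on the unirradiated arrays. The groups did not overlap, irradiated 2 and 4 being the lowest, and Ms4a1 fell 18.4-fold (adjusted p = 1.1e-05). Cd79a, a signalling chain of the B cell receptor, fell 27.3-fold. Transcription factors of the lineage fell as well, among them Spib, an Ets factor (22.96-fold), Pax5 (log2 -3.05) and Ebf1 (log2 -3.71). Bcl11a, a zinc finger factor, fell 34.4-fold on its brightest probe, and 2 of its 3 probes had that sign. Only Ralgps2 (log2 0.00) and Ciita (log2 -0.56), the master regulator of MHC class II genes, did not pass. The mean centred level was -2.05 to -1.58 on the irradiated and 1.54 to 2.18 on the unirradiated arrays. Of the 27 genes, 5 were kept in the fit through the unirradiated group alone, so a fall was the only change they could show.

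The Vpreb3 promoter window, chr10:75948050-75948349 of GRCm38.p6 on the + strand, carries the octamer element of immunoglobulin and other B cell promoters, searched as ATGCAAAT on both strands and marked in capitals.
Vpreb3: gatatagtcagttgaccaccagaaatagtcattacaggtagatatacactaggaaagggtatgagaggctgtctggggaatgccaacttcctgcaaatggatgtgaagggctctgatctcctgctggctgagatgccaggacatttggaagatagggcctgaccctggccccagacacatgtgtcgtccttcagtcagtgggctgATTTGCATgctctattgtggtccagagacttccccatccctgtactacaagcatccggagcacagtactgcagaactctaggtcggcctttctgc
The match lies at position -45. Vpreb3 was 1 of 2 that held the octamer among the 19 B cell genes that fell and had a promoter (10.5%), against 2.0% of all genes of the table.

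MHC class II genes, which present peptides to helper T cells and are expressed by B cells, dendritic cells and some monocytes, fell. All 10 measured fell and the median was -3.70. Of these 10, 2 were kept in the fit through the unirradiated group alone. H2-Aa had log2 levels of 2.11, 0.19, 1.65, -0.18 and 1.60 on the irradiated arrays, against 4.45, 4.42, 4.21, 4.84 and 4.24 on the unirradiated arrays. All irradiated arrays were lower, and H2-Aa fell 10.3-fold (adjusted p = 0.000215). H2-Ab1 fell 15.2-fold, Cd74, the invariant chain, 10.2-fold, and H2-Oa and H2-Ob, subunits of the B cell modulator of peptide loading, 13.9-fold and 15.4-fold. H2-Eb2 was at least 13.4-fold lower, with no irradiated array well above background. Within slide 2 the list medians relative to all genes were -3.74 for B cell genes and -3.36 for MHC class II genes.

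Of 27 T cell genes measured, 2 rose (7.41%) and 11 fell (40.7%), with a median of -0.53. Those named here were partly picked after their values were seen, and make no list of a T cell subset. The chains of the CD3 complex, carried by all T cells, did not pass: Cd3d had a log2 change of -0.02, Cd3g 0.13 and Cd3e -0.53, with adjusted p of 0.955, 0.706 and 0.122. Among those that fell was Ccr7, the receptor that guides naive cells to lymph nodes. It had log2 levels of 1.54, 2.02, 2.06, 2.01 and 2.17 on the irradiated arrays, against 5.66, 5.72, 5.54, 6.0 and 5.38 on the unirradiated arrays. The groups did not overlap, and irradiated 1 was below the other irradiated arrays. Ccr7 fell 12.97-fold (adjusted p = 5.39e-07), Lef1, a transcription factor of naive T cells, fell 4.47-fold, and Tcf7, its relative, had a log2 change of -3.05 (adjusted p = 0.000573). Cd8b1, a chain of the CD8 co-receptor of cytotoxic T cells, fell 8.26-fold (adjusted p = 5.28e-06) and Cd8a changed by -2.83, whereas Cd4 did not pass (log2 -0.50). Lat, an adaptor of T cell receptor signalling, was among the members that rose (0.74).

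Genes of natural killer and other cytotoxic cells moved the other way from those of B cells. Of 20 measured, 18 rose and none fell, with a median of 1.47 against -0.07 over all genes. Gzmb, the cytotoxic protease granzyme B, had log2 levels of 4.24, 4.18, 4.25, 3.98 and 4.50 on the irradiated arrays, against 2.05, 1.57, 2.12, 1.82 and 1.59 on the unirradiated arrays. Every irradiated array was higher, and Gzmb rose 5.27-fold (adjusted p = 4.93e-06). Receptors that define natural killer cells rose too: Klrb1c, which encodes NK1.1, 3.97-fold, Ncr1, which encodes NKp46, 3.21-fold, and Klrd1, which encodes CD94, 1.89-fold. The transcription factors Tbx21 and Eomes changed by 1.10 and 0.65, and both passed. Klrg1 (0.71) and Gzmk (-1.15) did not. The mean centred level was 0.49 to 0.95 on irradiated and -0.85 to -0.50 on unirradiated arrays, and the median within slide 2, relative to all genes, was 1.54.

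Genes of mature neutrophils rose. Of 24 measured, 23 rose and none fell, and the median was 2.03. Of these, 2 were kept in the fit through the irradiated group alone, as were 2 of the p53 targets. S100a8, a calcium-binding protein that is abundant in neutrophils, had log2 levels of 9.19, 8.77, 8.92, 9.26 and 8.71 on the irradiated arrays, against 6.18, 5.73, 6.93, 5.50 and 8.13 on the unirradiated arrays. Irradiated arrays were all higher, unirradiated 5 coming the closest, and S100a8 rose 5.57-fold (adjusted p = 0.00159), with its partner S100a9 rising 3.02-fold. Steap4, a metalloreductase well above background on 1 of 5 unirradiated arrays, rose 10.3-fold, Stfa2l1, a stefin, 8.27-fold, Ly6g, the antigen that marks mouse neutrophils, 4.22-fold, and Csf3r, the receptor for G-CSF, 2.13-fold. The size of this rise depended on unirradiated 5: the list's centred level was 0.78 to 1.34 on the irradiated arrays, against -1.70 to -0.65 on unirradiated 1 to 4 and -0.07 on unirradiated 5. Within slide 2, where that array is the comparison, the median relative to all genes was 0.80, against 2.10 in the full comparison, and the fit with slide as a block called none of the 24 genes.

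Granule genes, which are transcribed in neutrophil precursors of the marrow, were mixed: 4 of 11 rose (36.4%) and 1 fell (9.09%). Of all genes 19.9% rose and 16.6% fell. The median of the granule list was 0.36. Relative to all genes it was 0.43, and it turned to -0.22 within slide 2. Lcn2, an iron-scavenging protein, rose 5.85-fold, Mmp8, a collagenase, 4.48-fold and Prtn3, proteinase 3, 3.81-fold, whereas Elane, neutrophil elastase, and Ctsg, cathepsin G, had log2 changes of -0.34 and -0.47 and did not pass. Chil3, a chitinase-like protein of precursors and macrophages, fell 4.63-fold (adjusted p = 0.000464).

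Of 27 monocyte genes 5 rose and 5 fell (18.5% each), shares near the 19.9% and 16.6% of all genes, with a median of -0.28. Leaving out a single array gave 3 to 7 rises. Csf1r, the receptor for the monocyte growth factor M-CSF, had a log2 change of -0.09 (adjusted p = 0.765), and Ccr2, the receptor of classical monocytes, -1.16 (adjusted p = 0.172). Cx3cr1, the fractalkine receptor of patrolling monocytes, had log2 levels of -0.19, 1.23, 0.91, 1.07 and 1.24 on the irradiated arrays, against 3.79, 3.25, 2.84, 2.67 and 3.08 on the unirradiated arrays. All irradiated arrays were lower, irradiated 1 by far the lowest, and Cx3cr1 fell 4.84-fold (adjusted p = 0.000345). Fcgr4, an activating receptor for IgG, rose 3.73-fold, and Pld4, an endosomal nuclease, fell 2.98-fold.

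Of 15 dendritic cell genes 3 rose (20%) and 6 fell (40%), with a median of -0.75. Of all genes 19.9% rose and 16.6% fell, so the share of rises was near that of all genes. Flt3, the receptor that dendritic cells need to develop, fell 4.20-fold and Cd83, which is shared with activated B cells, fell 8.50-fold (adjusted p = 1.13e-06). The regulators Irf4 and Tcf4, which B cells also express, fell 3.49-fold and 3.05-fold. The 3 that rose were Clec9a (2.35-fold), Zbtb46 (1.75-fold) and Itgax (log2 0.70). Cd209a (4.01-fold) and Irf8 (3.05-fold) were the other falls. Genes of basophils, mast cells and eosinophils, 12 measured, gave 4 rises (33.3%) and 5 falls (41.7%). Of the 12, 5 were kept in the fit through the unirradiated group alone. Mcpt8, the basophil protease, was at least 5.59-fold lower and Cd200r3, a receptor of basophils and mast cells, at least 2.34-fold lower, no irradiated array being well above background for either. With normexp the change of Cd200r3 was 0.10. Hdc, which makes histamine in basophils and also in neutrophils, rose by 2.59 on the log2 scale.

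Platelet genes rose together. Of 30 measured, 27 rose and none fell, and the median was 1.53. Itga2b, the integrin chain CD41, had log2 levels of 4.73, 4.99, 5.37 and 5.43 on the 4 irradiated arrays with a value, against 3.66, 3.25, 3.49, 2.32 and 3.53 on the unirradiated arrays. These irradiated arrays were all higher, the spot on irradiated 3 having been left out by its scanner flag, and Itga2b rose 3.68-fold (adjusted p = 0.001). Gp1ba, the von Willebrand factor receptor, rose 3.42-fold, P2ry12, the ADP receptor, 4.28-fold, Rgs18, a regulator of G protein signalling, 4.08-fold, and Gfi1b, a transcription factor of the megakaryocyte and red cell lineages, 4.80-fold. The mean centred level was 0.33 to 1.35 on irradiated and -1.35 to -0.46 on unirradiated arrays, and within slide 2 the median relative to all genes was 1.11. With the slide as a block 2 platelet genes were called. With background correction by normexp in place of the processed signal, 4 of 30 platelet genes, 5 of 24 mature neutrophil genes and 2 of 20 natural killer genes rose.

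Of 18 genes of the red cell membrane measured, 2 rose and 11 fell, with a median of -1.17. The list's mean centred level was -1.30 to 0.19 on the irradiated and -0.01 to 0.84 on the unirradiated arrays, so the groups overlapped, with irradiated 3 the highest of its group. Slc4a1, the anion exchanger band 3, had log2 levels of 5.40, 5.49, 6.53, 5.63 and 5.64 on the irradiated arrays, against 7.58, 8.08, 8.02, 6.87 and 7.95 on the unirradiated arrays. No irradiated array reached the unirradiated range, with irradiated 3 the closest to it, and Slc4a1 fell 3.89-fold (adjusted p = 0.000525). Ank1, the ankyrin that anchors band 3, fell 6.38-fold. The globins themselves did not pass: the log2 change was 0.09 for Hba-a1, 0.07 for Hba-a2 and 0.15 for Hbb-b1, with adjusted p of 0.749, 0.851 and 0.452. Of the 22 globin and haem genes 1 rose and 11 fell, with a median of -0.59. Ahsp, which stabilises free alpha globin, had log2 levels of 5.11, 6.12, 6.34 and 5.97 on the 4 irradiated arrays with a value, against 8.01, 8.12, 8.11, 7.30 and 7.31 on the unirradiated arrays. Its spot on irradiated 3 was left out too, and it fell 3.69-fold with no overlap. Car1, a carbonic anhydrase of red cells, fell 3.40-fold, and Tfrc, the transferrin receptor, was the single member that rose (2.05-fold). Among 14 regulators of red cell formation 4 rose (28.6%) and 3 fell (21.4%), against 19.9% and 16.6% of all genes. Those that rose were Epor, the erythropoietin receptor (4.07-fold), Tal1 (3.59-fold), Nfe2 (2.83-fold) and Gata1 (2.50-fold, groups overlapping). The last 3 are transcription factors that megakaryocytes also use. Klf1, the factor specific to red cells, did not pass (log2 0.24, adjusted p = 0.552).

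**Figure D3:**
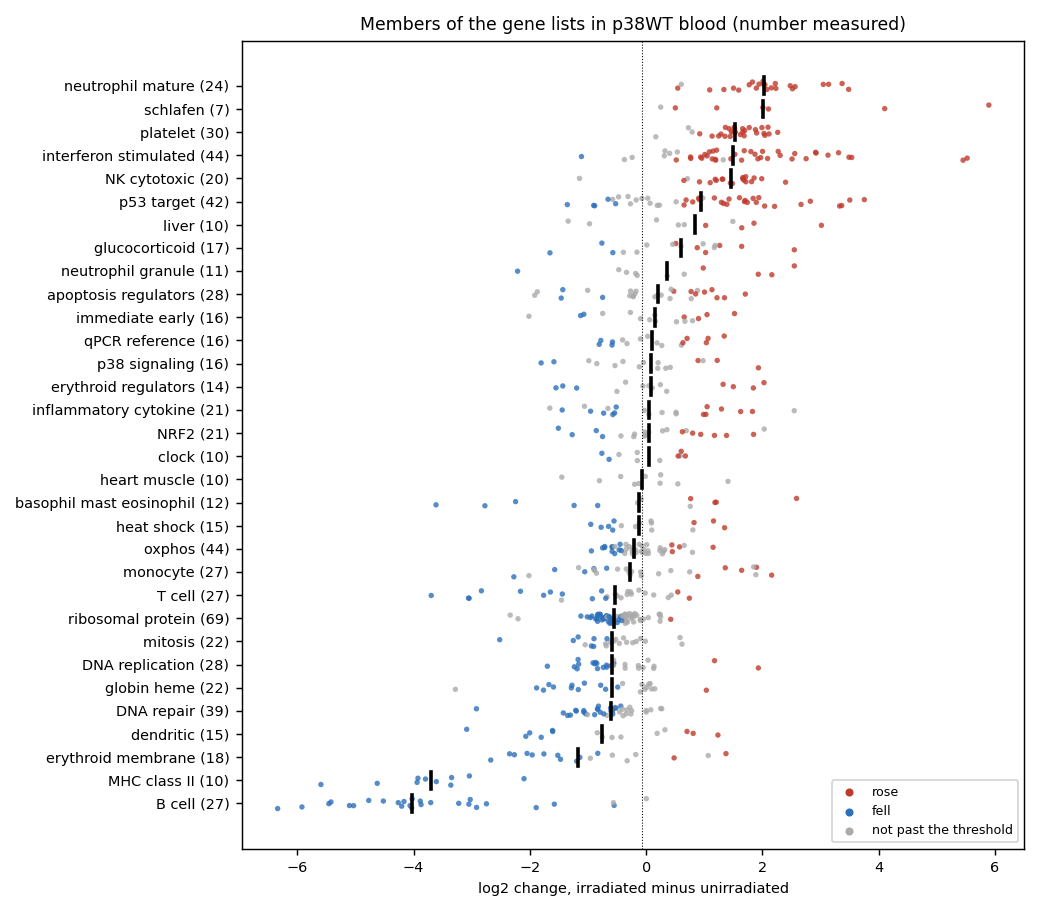
Log2 change, irradiated minus unirradiated, of each measured member of the gene lists, 1 dot a gene, coloured by whether it rose, fell or did not pass; black bars are list medians and the dotted line is the median of all genes, -0.07. B cell and MHC class II genes lie far to the left at medians of -4.03 and -3.70, and neutrophil, platelet, natural killer, interferon, Schlafen and p53 lists lie to the right.

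Genes of DNA repair were lower in irradiated blood. Of 39 measured, none rose and 22 fell, with a median of -0.60, and the range over fits that leave out a single array was 15 to 24 falls. Of the 39, 4 were kept in the fit through the unirradiated group alone, so a fall was the only change they could show. Parp1, the sensor of DNA strand breaks, had log2 levels of -2.53, -1.50, -1.56, -2.06 and -1.97 on the irradiated arrays, against 1.20, 1.16, 0.78, 1.20 and 0.63 on the unirradiated arrays. Irradiated arrays were all lower, and Parp1 fell 7.57-fold (adjusted p = 8.97e-06). Apex1, the endonuclease of base excision repair, fell 2.55-fold, and Msh6, a mismatch repair protein, 2.32-fold. Members of the end-joining complex fell as well, with log2 changes of -1.43 for Xrcc6, which encodes Ku70, -0.89 for Xrcc5, which encodes Ku80, and -1.30 for Prkdc, the kinase they recruit. The kinase Atm did not pass (log2 -0.67, adjusted p = 0.0722).

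Genes of DNA replication followed, with 2 of 28 rising, 16 falling and a median of -0.58. Pold1, the catalytic subunit of polymerase delta, fell 3.25-fold (adjusted p = 8.94e-06), Cdt1, which licenses origins, 2.28-fold, and Rpa1, which covers single-stranded DNA, 2.25-fold. All 6 members of the Mcm helicase fell, between -0.88 and -0.60 on the log2 scale. Cdc45 (1.93) and Dut (1.18) rose. Of 22 mitosis genes none rose and 7 fell (31.8%, median -0.58), against 19.9% and 16.6% of all genes. Of the 22, 4 were kept through the unirradiated group alone, as were 2 of the replication genes. Nusap1, a spindle protein, fell 5.73-fold and Aurka, a mitotic kinase, 2.25-fold, and Mki67, the usual marker of dividing cells, did not pass (log2 0.58). With no scaling between arrays the mitosis list gave 14 falls, and with normexp the sign of Aurka turned to 0.12.

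Ribosomal protein genes were lower by small amounts. Of 69 measured, 36 fell and Rpl39 alone rose, with a median of -0.55. Rpl4 had log2 levels of 5.52, 5.29, 5.55, 5.09 and 5.50 on the irradiated arrays, against 6.20, 6.17, 6.08, 6.54 and 6.19 on the unirradiated arrays, and it fell 1.80-fold. Rps4x fell 1.91-fold, and the groups did not overlap for either gene. This count moved with the processing: leaving out a single array gave 27 to 42 falls, normexp gave 2, and the slide as a block gave 0. Of 44 genes of oxidative phosphorylation 4 rose (9.09%) and 11 fell (25%), against 19.9% and 16.6% of all genes. Their median was -0.20, and the mean centred levels of the 2 groups overlapped. Cox5a rose 2.22-fold and Atp5b fell 1.92-fold.

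**Figure D4:**
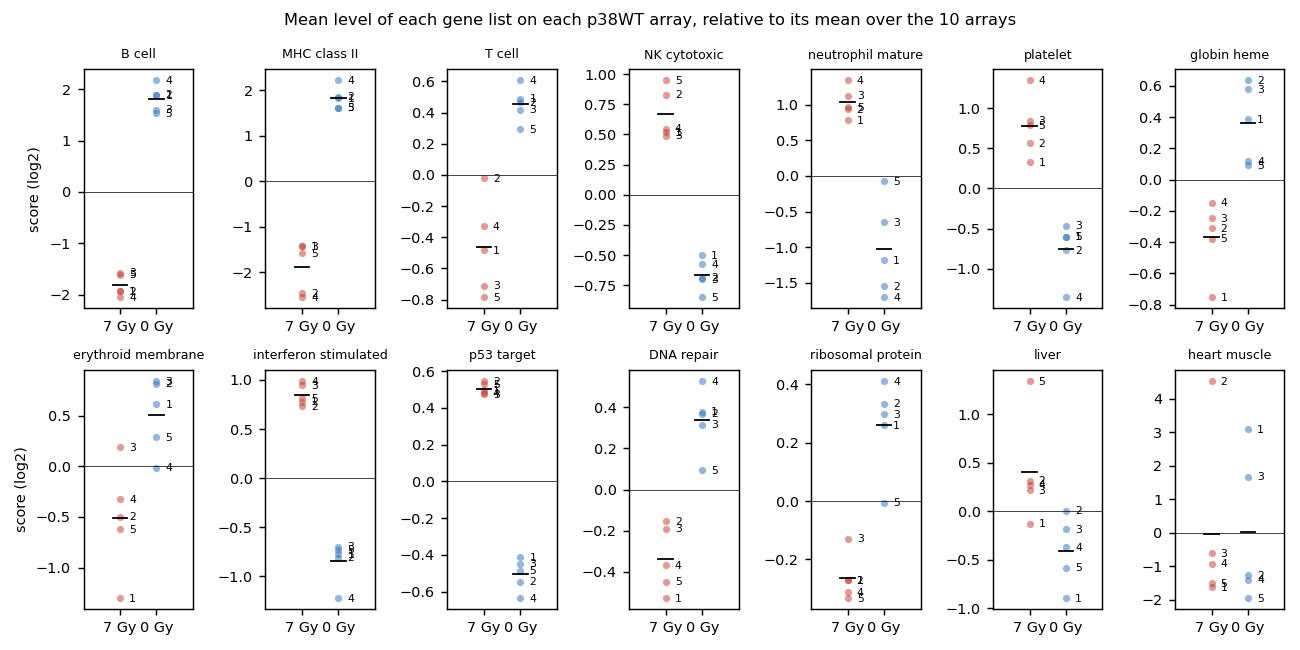
Mean level of each list's measured genes on each array, every gene centred on its mean over the 10 arrays (log2); points carry the array number, 7 Gy is left of 0 Gy and the black bar is the group mean. The B cell and MHC class II lists separate the groups widely, and unirradiated 5 lies closest to the irradiated arrays in the mature neutrophil list, at -0.07.

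Regulators of cell death and stress pathways were mixed, and the counts below stand beside 19.9% rises and 16.6% falls over all genes. Of 28 apoptosis regulators 8 rose and 3 fell, with a median of 0.20. Relative to all genes that median was 0.27, and -0.23 with normexp. Cflar, which blocks caspase-8, had log2 levels of 4.60, 4.42, 4.57, 5.08 and 4.53 on the irradiated arrays, against 3.0, 3.11, 3.05, 2.72 and 2.79 on the unirradiated arrays. The groups did not overlap, irradiated 4 being the highest, and it rose 3.26-fold (adjusted p = 3.57e-05). Tnfsf10, which encodes the death ligand TRAIL, rose 2.33-fold and Bmf, a pro-apoptotic BH3 protein, fell 2.75-fold. Of 17 glucocorticoid-induced genes 6 rose and 3 fell, with a median of 0.60. Relative to all genes that median was 0.67, and -0.37 within slide 2. Cebpd, a transcription factor of myeloid cells, rose 3.12-fold. Pik3ip1, an inhibitor of PI3 kinase found in T cells, fell 3.15-fold. The best-known glucocorticoid targets differed, Fkbp5 rising by 1.02 and Tsc22d3 not passing at -0.16. Of 21 genes of the NRF2 antioxidant response 6 rose and 4 fell, Srxn1, a sulfiredoxin, rising 3.60-fold and Gpx1, a glutathione peroxidase abundant in red cells, falling 2.85-fold.

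Of 15 heat shock genes 3 rose and 5 fell. Hspa1a, the inducible HSP70, rose 2.55-fold and its partner Bag3 2.23-fold, while the mitochondrial chaperones Hspe1 (-0.95), Hspd1 (-0.65) and Hspa9 (-0.58) fell. Of 16 immediate early genes 4 rose and 2 fell, Jun rising 2.07-fold and Myc falling 2.19-fold. The median of that list relative to all genes was 0.22, and -0.64 within slide 2. Of 21 genes of inflammatory cytokines and NF-kappaB 6 rose and 6 fell. The cytokines Tnf (2.07-fold) and Il1b (log2 1.83) rose. The subunits Rel (-1.44), Nfkb2 (-0.96), Relb (-0.54) and Nfkb1 (-0.52) fell on the log2 scale, and Rela did not pass (-0.03). Of 10 clock genes 3 rose and 2 fell, with log2 changes of 0.67 for Dbp and -0.76 for Per1. The labels give no time of day.

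The p38 kinases are of interest because the other genotypes of the study concern them. Mapk14, which encodes p38 alpha, had log2 levels of 4.11, 4.81, 5.39, 5.69 and 4.59 on the irradiated arrays, against 4.32, 3.85, 4.23, 3.71 and 4.01 on the unirradiated arrays. The groups overlapped, and it rose 1.86-fold (adjusted p = 0.03). Mapk11, p38 beta, had log2 levels of -0.68, -1.44, -1.44, -1.84 and -1.27 on the irradiated arrays, against 0.37, 0.17, 0.07, 0.61 and 0.04 on the unirradiated arrays. All irradiated arrays were lower, and it fell 3.0-fold (adjusted p = 0.000361). Mapk13, p38 delta, rose 3.81-fold, Mapk12, p38 gamma, changed by -1.81 (adjusted p = 0.00278), and Map2k3, an upstream kinase, rose 2.33-fold. Of all 16 p38 pathway genes 3 rose and 2 fell (18.8% and 12.5%), shares near those of all genes, and leaving out a single array gave 2 to 4 rises. Common qPCR reference genes were not all level: of 16 measured, 5 rose (31.2%) and 4 fell (25%), against 19.9% and 16.6% of all genes. With a single array left out, 3 to 6 rose and 2 to 4 fell. B2m rose 2.09-fold and Ywhaz 2.54-fold. Gapdh changed by 0.63 and Hprt by -0.58 on the log2 scale, both past the threshold.

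Markers of other tissues were present on some arrays. Of 25 liver genes 10 were measured and 4 rose (40%, against 19.9% of all genes), with a median of 0.84. Of the 10, 2 were kept in the fit through the irradiated group alone, so a rise was the only change they could show. The rises included Ambp (8.08-fold), Tat (3.13-fold) and Trf (2.03-fold, groups overlapping). The size of the Ambp rise rested on irradiated 1 (1.44) and 5 (3.94). Its other irradiated levels were -1.64 to -1.19, against -3.38 to -1.79 on the unirradiated arrays. The Ambp change within slide 2 was 1.43. Apoa2, Apoc1 and Apoc3 did not pass, and the albumin gene was not among those measured. The centred level of these 10 genes was -0.13 to 1.34 on irradiated and -0.89 to 0.01 on unirradiated arrays, and 1 to 5 of them rose when a single array was left out. Of 19 heart muscle genes 10 were measured and none passed. Their centred level was high on 3 arrays, irradiated 2 (4.53), unirradiated 1 (3.10) and unirradiated 3 (1.67), and -1.95 to -0.62 on the rest. A further fit left out irradiated 2, irradiated 3 and unirradiated 1, a choice made after seeing the data. It is not a fit without heart transcripts, since unirradiated 3 was kept and irradiated 3, at -0.62, was among the low arrays. In that fit 4171 genes were called and 24 of 27 B cell genes fell. Rises were found for 17 natural killer, 19 neutrophil, 24 platelet, 35 interferon-stimulated and 24 p53 target genes.

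Some of the changes formed runs of adjacent genes on a chromosome, a pattern singled out after the values were seen and given with no test. On chromosome 6, 13 tested genes of the natural killer receptor cluster, Klrk1 to Klra1, rose in a row (log2 1.10 to 2.45). On chromosome 16, 8 stefin and cystatin genes rose (1.74 to 3.36). Runs of 7 genes around Ifit3 on chromosome 19 and 5 around Slfn4 on chromosome 11 also rose. Falling runs were 6 kallikrein genes on chromosome 7 and 5 MHC class II genes on chromosome 17. Of the kallikreins, 4 were well above background on no irradiated array and were at least 2.26-fold to 10.4-fold lower, and the other 2 changed by -2.85 and -2.12. Of the MHC class II run, H2-Eb2 has the bound given above and the other 4 changed by -3.94 to -3.36. Relatives can cross-hybridise where their probes are alike. The probes of Klk1b26 and Klk1b5 matched at 54 of 59 overlapping bases, so these kallikreins may not have been measured independently. Those of Klra4 and Klra7 matched at 51 of 57. Between Schlafen probes, and between Ifit probes, no pair matched at more than 24 bases. Probes were not compared with the transcripts of relatives, so a low match does not show that such genes were measured independently.

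**Figure D5:**
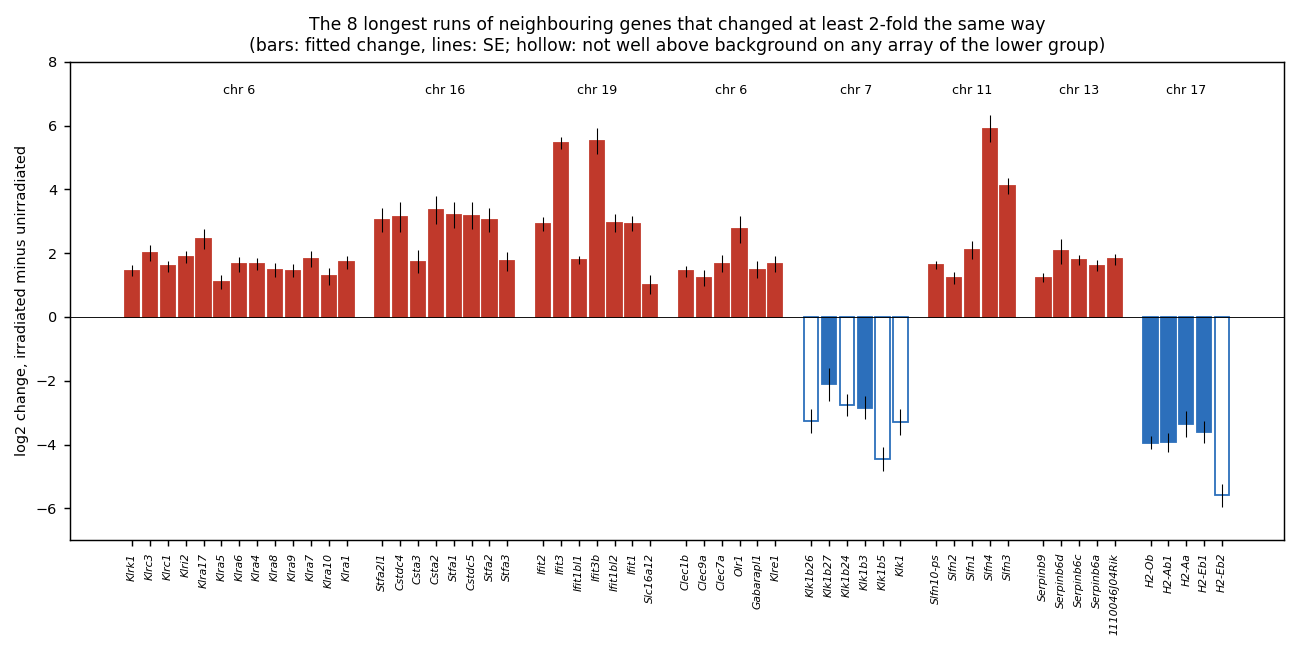
Log2 change, irradiated minus unirradiated, of the genes in the longest runs of neighbours that changed the same way, in chromosome order; bars are the fitted change and lines its SE, and hollow bars mark 5 genes well above background on no irradiated array, whose fitted change is not a measured size. The natural killer receptor, stefin, Ifit and Schlafen runs are above 0 and the kallikrein and MHC class II runs below it.

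The p38WT response was then set against the responses of the other genotypes, each taken as irradiated minus unirradiated within its genotype. The difference between the p38WT and p38DKI responses passed for 0 of 17883 genes (0%) by limma, with 2401 at an unadjusted p under 0.05. The difference from the p38DN response passed for 603 of 17581 genes (3.43%), 300 of them higher and 303 lower in p38WT. This count depended on the processing: with normexp it was 0 by limma, with 3106 at an unadjusted p under 0.05, and with a single array left out it ranged from 0.615% without p38WT unirradiated 1 to 7.04% without p38DN unirradiated 1. Liver transcripts were high in unirradiated p38DN blood: Apoa2 had mean levels of 4.60 ± 1.13 in irradiated and 7.68 ± 2.91 in unirradiated p38DN blood (SD, n = 5 each). Without the 3 unirradiated p38DN arrays highest in them 1.61% of genes passed. Liver transcripts were also raised and variable in p38DKI blood. There Apoa2 had 4.53 ± 3.69 in irradiated and 3.14 ± 1.61 in unirradiated blood (SD, n = 5 each). In p38WT it had 1.96 ± 0.169 and 1.78 ± 0.180. Without p38DKI irradiated 2 the difference from the p38DKI response again passed for 0 genes. Some of the largest p38WT responses were large in all 3 genotypes: Slfn4 changed by 5.90, 5.62 and 5.28 on the log2 scale in p38WT, p38DKI and p38DN, Cdkn1a by 3.50, 4.14 and 4.35, and Vpreb3 by -6.34, -6.24 and -5.87. A p that misses the threshold does not show that these responses are equal.

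Of the named genes reported here 24 passed for the difference from p38DN, within that dependence on the processing, and 3.43% of all genes did. Some named genes were chosen for the smallest p of this difference, so the count is partly fixed by that choice. Ifit3 changed by 5.45 in p38WT, 4.78 in p38DKI and 3.50 in p38DN (p38WT minus p38DN 1.95, adjusted p = 0.0307), and Zmat3, an RNA-binding p53 target, by 1.39, 1.87 and 3.07 (difference -1.68, adjusted p = 0.00413). Of the neutrophil genes, Ly6g changed by 2.08, 1.12 and 0.50 (adjusted p = 0.023), and Steap4 by 3.37, 2.35 and 0.27 (adjusted p = 0.0332). Steap4 was well above background on 1 unirradiated p38WT array, no unirradiated p38DKI array and 3 of the 10 p38DN arrays. Mcpt8 was well above background on all 5 unirradiated arrays of p38WT and of p38DKI, on no irradiated array of either and on none of the 10 p38DN arrays. Its difference from p38DN passed (adjusted p = 0.00528) but has no measured size. Its level in unirradiated blood was -0.79 ± 0.471 in p38WT, -1.08 ± 0.374 in p38DKI and -5.15 ± 0.507 in p38DN (SD, n = 5 each), the last not above background and measured in another batch. The p38DN arrays were hybridised on other slides and scanned in another period, so a difference between these genotypes cannot be told apart from a difference between the batches.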

How the data were processed

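Blood RNA of 5 irradiated and 5 unirradiated p38WT samples was read on Agilent 1-colour arrays with Feature Extraction 12.0.2, per the file headers. The authors' scanner files hold a processed signal in intensity units for 43020 spots that are not controls, on 39429 probes with mm9 positions. The deposited table holds log2 values for 18417 probes and served as an alternative. It equalled the log2 processed signal minus a constant per array for probes spotted once, to within 1.9e-06.

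Here the processed intensity was taken to log2, spots with outlier flags were left out, replicate spots were averaged and each array's 75th percentile was taken off. Probes passed the filter, 20613 in all, when 4 or more of the 5 arrays of either group flagged them well above background; a gene with several was read from its brightest. Probes were named through RefSeq by accession (29056), symbol (3150) or synonym (116), and 7107 kept the array's name. That percentile lay at intensities of 56.67 to 127.52. The number of arrays limits the precision. Group means were fitted with limma 3.58.1 in R 4.3.3 over 10 arrays (8 residual degrees of freedom), with Benjamini-Hochberg adjustment over 16339 genes and a threshold of 0.05. The difference between the responses of 2 genotypes was an interaction term over 20 arrays. Fits were tested on simulated data.

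Gene lists were described by counts and medians, with no set test. The members and lists were chosen with earlier results of these data known. Named genes are the 12 largest rises and 12 largest falls among named genes called, detected over background in all 5 samples of the group with the higher level, and with no overlap. To these were added the 3 smallest p-values of each list, the first 3 measured members of each list of cell types or other tissues, the whole of any list under 8 genes, Mapk14, Mapk11 and Cdkn1a, and the 5 smallest p-values of each difference between genotypes. The results of a few genes that this rule or the lists take in are not reported here. Other list members named, and the genes outside every list, were picked after their values were seen. A fold of "at least" sets the brighter group's mean against the lowest signal well above background on the dimmer arrays, or the probe's own where higher. Replicate numbers pair no samples known to share a source, so the p-values measure the spread between samples. Alternatives were the scaling, the background correction, the filter, the choice of probe, all 30 arrays, the slide or replicate number as a block, robust fitting, the deposited table and leaving out each array.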

Additional observations from a re-analysis of the deposited data

Results flagged for a closer look

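Single arrays that stood far from the rest of their group of 5 by Dixon's test were found in 24 of 382 groups examined, and chance gives about 1 in 20. Among irradiated arrays, array 1 stood apart for Ccr7 (1.54), Cx3cr1 (-0.19), Nfkb2 (0.29), Slfn2 (5.12), Slfn3 (1.76), Slfn8 (3.98) and the Schlafen list (1.61). Array 2 stood apart for Myh6 (6.27), Tnnt2 (4.38) and the heart muscle list (4.53), array 3 for Cd83 (-0.90), H2-Eb2 (-3.70) and Slc4a1 (6.53), array 4 for 1600014C10Rik (1.61), Cflar (5.08) and Ywhaz (4.26), and array 5 for Tnf (-1.73). Among unirradiated arrays, array 1 stood apart for the apoptosis list (0.03), array 3 for Tnfsf10 (-1.61), array 4 for Ifit3b (-2.19), Rpl4 (6.54) and the interferon list (-1.22), and array 5 for Cdkn1a (-0.07) and Zmat3 (-1.88). These are log2 levels, and for lists the mean of centred levels.

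The responses of 24 of the named genes reported here differed between p38WT and p38DN by the interaction term, as did those of 3.43% of all genes. Some of the 24 were named for the smallest p of this difference, so the count is partly fixed by that choice. The p38WT response minus the p38DN response was above 0 for Tat (3.63), Steap4 (3.10), Cldn19 (2.56), Lcn2 (2.51), 2310047D07Rik (2.34), Stfa2l1 (2.28), 1600014C10Rik (2.20), Ifit3 (1.95), Oasl1 (1.60) and Ly6g (1.57). It was below 0 for Mcpt8 (-3.57), Aurka (-2.78), Defb40 (-2.76), Cd200r3 (-2.75), Cd8b1 (-2.16), H2-Ab1 (-2.10), Spib (-2.08), Tnfrsf13c (-1.98), Cyria (-1.77), Zmat3 (-1.68), Tcf4 (-1.57), Pik3ip1 (-1.55), Parp1 (-1.27) and Msh6 (-1.16). Mcpt8, Defb40 and Cd200r3 were well above background on no irradiated p38WT array and on none of the 10 p38DN arrays, so their values are no measured sizes, and 2310047D07Rik, Aurka and Steap4 were so on 1, 4 and 3 of the 10 p38DN arrays. Tat is a liver gene, with levels of 0.86 ± 0.271 in irradiated and 2.85 ± 2.15 in unirradiated p38DN blood (SD, n = 5 each). Other liver genes moved with it: Ambp had 2.57 ± 1.74 in irradiated and 5.33 ± 3.89 in unirradiated p38DN blood, and Apoc1 had 3.11 ± 2.03 in irradiated and 6.52 ± 3.65 in unirradiated p38DN blood. Their part in the differences was not tested. The p38DN arrays came from another scan period.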

How the results depend on the processing

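Counts under other settings are given as percentages of the genes tested under each, with changes judged on the counts. The p38WT comparison called 36.5%, and its count stayed within 1.5 times under every scaling, filter, probe choice and left-out array tried; normexp and the slide as a fixed block moved it further. No scaling changed the split, to 8.94% rises and 33.5% falls. Normexp with an offset of 50 called 12.2%, 5.47% that rose and 6.70% that fell, with 4.18% changed at least 2-fold. The slide as a fixed block, which leaves 3 irradiated arrays against unirradiated 5 to carry the comparison, called 3.09%, 1.63% that rose and 1.46% that fell, all of them at least 2-fold, with 2878 genes at an unadjusted p under 0.05. As a random block it called 40.4%. The correlation within slides was estimated as negative there (-0.0551), so that fit does not address the overlap of slide and treatment. Left-out arrays gave 28.8% to 36.7%. Of the 142 named genes past the threshold, 55 no longer passed with normexp and 92 with the fixed slide block, and 1 to 5 with an array left out, among Ambp, Cyria, Mapk14, Slfn9 and Trf. Normexp reversed Aurka (0.12) and Cd200r3 (0.10); the cause was not tested. Some list medians relative to all genes turned negative. With slide 2 alone, or slide as a block, these included -0.22 for neutrophil granule, -0.37 for glucocorticoid and -0.19 for p38 genes. With normexp they included -0.23 for apoptosis regulators, -0.27 for qPCR reference genes and -0.10 for p38 genes. With no filter the p38 genes had -0.0028. Within slide 2 the immediate early genes had -0.64, against 0.22 in the full comparison. Smaller turns within slide 2 were -0.10 for inflammatory cytokines and NF-kappaB, -0.05 for regulators of red cell formation and -0.02 for NRF2 genes. In the full comparison these had 0.12, 0.15 and 0.12.

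The difference from the p38DKI response passed for 0 genes (2401 at an unadjusted p under 0.05), for 0.00559% with no scaling and 0.00534% with all 30 arrays, 1 gene each, and for 0 to 0.0220% with an array left out (4 genes without p38WT unirradiated 5). The difference from p38DN, 3.43%, was 5.60% with no scaling, 1.31% with the array median, 0 with normexp, 1.64% with all 30 arrays and 1.61% without the 3 unirradiated p38DN arrays highest in liver transcripts. With an array left out it ranged from 0.615% (p38WT unirradiated 1) to 7.04% (p38DN unirradiated 1). Its count was also over 1.5 times lower without p38WT irradiated 2 (1.94%) or 4 (1.96%), p38WT unirradiated 2 (1.33%), 3 (1.37%) or 4 (1.23%), p38DN irradiated 2 (1.49%) or 4 (1.35%), or p38DN unirradiated 2 (1.41%), 4 (1.61%) or 5 (1.52%), and higher without p38DN unirradiated 3 (5.34%).

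With the replicate number as a block, 29.8% of genes were called in p38WT and 2.12% for the difference from p38DN, and of the named genes Cyria, Mapk14 and Slfn9 were lost. The pairing is not borne out: deviations of same-numbered samples correlated at -0.10, 0.34, 0.07, -0.22 and 0.32, and samples 2 and 5 alone correlated best with their own number. On dim probes the background limits what can be measured, so 94 falls and 13 rises have only a bound.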

Other observations

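Of the genes that changed at least 4-fold, 180 that rose and 263 that fell were in no list. The genes named here were chosen after their values were seen. Among the rises was Saa1, an acute phase protein (10.96-fold, limma adjusted p = 0.00774), with means of 4.48 ± 1.92 in irradiated and 1.02 ± 0.862 in unirradiated blood (SD, n = 5 each). Acod1, which makes the macrophage metabolite itaconate, rose 7.50-fold, Mest, an imprinted gene, rose 8.09-fold (adjusted p = 1.65e-05), and H2-Q10, an MHC class I gene known from liver, rose 6.80-fold.

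Among the falls was Kmo, an enzyme of tryptophan breakdown, by 25.4-fold (adjusted p = 6.58e-08), with means of -2.69 ± 0.188 in irradiated and 1.98 ± 0.249 in unirradiated blood. Scd1, a fatty acid desaturase, fell 15.3-fold. Gpr183, a receptor that guides B cells within follicles, fell 14.9-fold and Cd55, which protects cells from complement, 12.9-fold. Dntt, the terminal transferase of lymphocyte precursors, fell 13.1-fold and was well above background on 2 irradiated and all 5 unirradiated arrays. Ell3 and Bend5 were well above background on no irradiated array and were at least 10.1-fold and 11.8-fold lower.

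Probes of genes were kept or left out by group: of 719 list genes tested, 12 were kept through the irradiated arrays alone and 32 through the unirradiated arrays alone. Where several probes of a called gene were kept, all had the same sign in 1229 of 1433 genes (85.8%).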
